A study of Mus musculus with 2 samples.

Results

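Lipid droplets are stores of neutral lipid wrapped in a phospholipid monolayer and a coat of proteins. The 10 genes described here encode 2 coat proteins (Plin2 and Plin3), 2 lipases (Pnpla2 and Lipe), 2 inhibitors of the lipase encoded by Pnpla2 (Hilpda and G0s2), the 2 enzymes that make triglyceride from diacylglycerol (Dgat1 and Dgat2) and 2 fatty acid binding proteins (Fabp4 and Fabp5). They were chosen by name, with earlier results of these data known, from 52550 gene identifiers. The ratios between the cultures that chose them are therefore given as a description, without a test. Of the 10 genes, 8 reached a mean of at least 1 CPM (counts per 1000000) over both libraries and are called measured. Among all identifiers 11673 were measured.

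The cells were RAW264.7, macrophage-like cells from a mouse tumour induced by the Abelson virus. One culture was grown in 2D and the other in 3D, both untreated, and each gave 1 library made from TRIzol-extracted RNA with a stranded mRNA kit. No source used here describes the method of 3D culture. Both groups are the same single line, so the culture method is the only labelled difference. With 1 library per culture there is no spread between cultures to test against, and every value below compares 2 libraries. In bulk RNA, fewer cells that express a gene and less of its RNA per cell cannot be told apart.

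A macrophage that takes up fatty acids or lipoprotein lipid esterifies it and stores it in droplets, and droplet-laden macrophages are the foam cells of atherosclerotic plaques. The perilipins coat the droplet and limit access of lipases. Triglyceride is hydrolysed in steps, first by adipose triglyceride lipase (ATGL, the product of Pnpla2), then by hormone-sensitive lipase (the product of Lipe) and by a monoglyceride lipase. Fatty acid binding proteins (FABPs) carry the released or imported fatty acids through the cytosol.

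Total counts were 14371084 for 2D and 16652503 for 3D, in 18580 and 15777 genes with at least 1 count. Counts were scaled to CPM with the trimmed mean of M-values (TMM), and ratios are 3D over 2D. On this scale the median log2 ratio of all measured genes was 0.05. It was -0.56 when only total counts were used and -0.41 when 22 reference genes were set to no difference. GC content, exon length and mean expression together took 45% of the variance of the log2 ratios across genes. Values after that trend was removed are called adjusted log2 ratios, and they are given for the measured genes of the 10. They are also given for other named genes of the lists below, and those most like Plin2, where they end or create a 2-fold call. All 17 macrophage identity genes were measured, and their summed level was 5237 CPM in 2D and 14080 CPM in 3D, with 9 at least 2-fold higher, 1 at least 2-fold lower (Ptprc, the pan-leukocyte phosphatase CD45) and 7 between. Their median log2 ratio was 1.19, and 0.008 after adjustment, when 1 was higher and none lower (Ptprc at -0.04). None of 15 adipocyte markers was measured, with 9 and 7 counts in all, and 10 of them, Adipoq, Lep and Cidec among them, were at 0 in both libraries. The 15 hepatocyte markers held 22 counts in 2D and 358 in 3D (1.24 and 26.5 CPM), with 10 at 0 in 2D and 2 at 0 in 3D, and Alb alone had 8 and 232 counts. The 9 fibroblast markers held 36 and 28 counts, with none measured. Of 8 endothelial markers 2 were measured, and of their 394 and 755 counts Vwf gave 357 and 714. The part of these cell type markers in the results below was not tested.

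Of the 8 measured genes, 5 were higher in 3D by 2-fold or more (Plin2, Hilpda, Pnpla2, Lipe and Plin3), none was lower by that much, and 3 lay between (Dgat1, Fabp5 and Fabp4). The same rule called 18.7% of all measured genes higher and 20.8% lower. Since these ratios were known when the genes were chosen, nothing is read from that contrast. The median log2 ratio of the 8 genes was 1.62, and 0.82 after adjustment, beside medians of 0.05 and 0.02 over all measured genes. The 10 genes together took 14014 counts in 2D and 48790 in 3D, which is 0.0975% and 0.293% of each library. Without Plin2 they took 0.0752% and 0.0860%, so Plin2 carried most of the difference in their summed share.

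**Figure D1:**
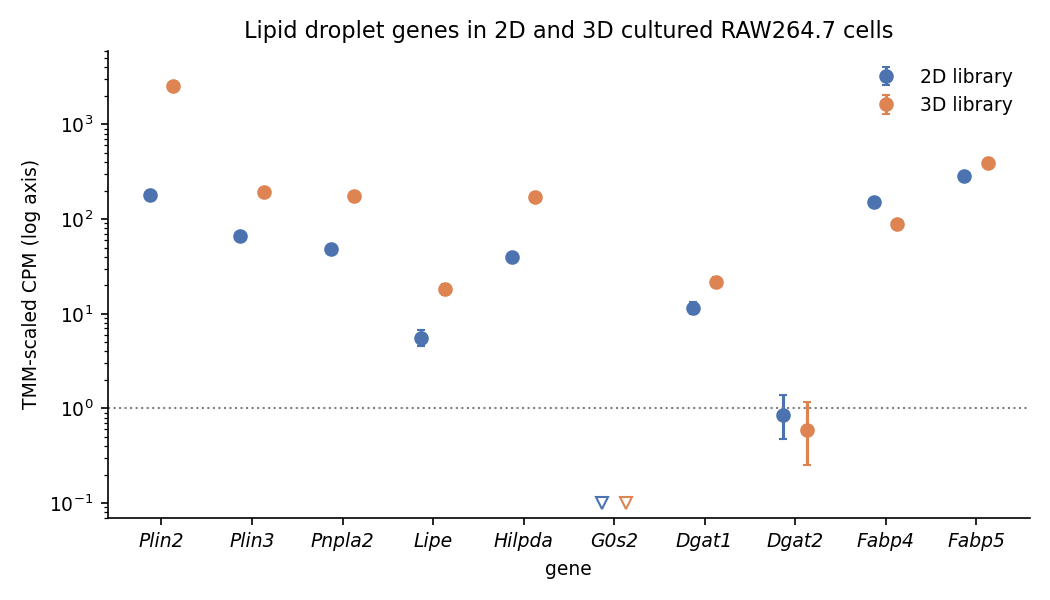
TMM-scaled CPM (log axis) of the 10 genes in the 2D library (blue) and the 3D library (orange). Points are single libraries, bars are exact 95% counting intervals, the dotted line marks 1 CPM, and the open triangles at the bottom mark G0s2, which had 0 counts in both libraries. Plin2 is the highest of the 10 in 3D at 2548 CPM, against 182 CPM in 2D.

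Plin2 encodes perilipin 2 (adipophilin), the coat protein of droplets in most cells other than adipocytes, which is degraded when it is not bound to lipid. The gene (ENSMUSG00000028494) lies on the minus strand at chr4:86648386-86670060 in mm10 (GRCm38). Its RefSeq promoter window, from 250 bases before the start site to 20 bases after it (GRCm38.p6, chr4:86670040-86670309, minus strand), is shown because Plin2 had the largest difference of the 10. Capitals mark GCGTG (here as its reverse complement CACGC), the E-box CACGTG, which also holds ACGTG on both strands, and the GC box GGGCGG.
Plin2: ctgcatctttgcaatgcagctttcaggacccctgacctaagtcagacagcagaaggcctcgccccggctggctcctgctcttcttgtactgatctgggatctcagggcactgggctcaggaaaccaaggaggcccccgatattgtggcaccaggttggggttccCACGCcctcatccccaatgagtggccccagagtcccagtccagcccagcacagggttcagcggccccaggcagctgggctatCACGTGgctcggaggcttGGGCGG

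The E-box began at position -4 from the start site and the GC box at position 14. A CCAAT box lay at -73, in lower case above. An E-box was present in 6.57% of all 32851 promoter windows of this length, ACGTG in 17.9%, GCGTG in 30%, the GC box in 34.1% and CCAAT in 35.4%, each searched on both strands. The direct repeat bound by PPAR receptors, with a copy of AGGTCA on each side of 1 free base, was in 11 windows (0.0335%) and in none of those of the 6 genes with a RefSeq window (Plin2, Plin3, Hilpda, G0s2, Pnpla2 and Lipe). A match is a description of letters and not evidence of binding, and no match says only that those letters are not in the window.

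Plin2 had 3210 counts in 2D and 34475 in 3D. These are 182 CPM (exact 95% counting interval 175 to 188) and 2548 CPM (2521 to 2575), so the 3D library was far above the 2D library. The ratio was 14.0 (13.5 to 14.6), a log2 ratio of 3.81. All counting intervals here cover counting error only, since the reads carry no molecular identifiers and need not be independent, and differences between cultures are not in them. Plin2 stood at rank 13 of 11673 by ratio. By raw counts it held rank 817 of all genes in 2D and rank 42 in 3D. Its share of all counts was 0.0223% in 2D and 0.207% in 3D. The adjusted log2 ratio was 2.49, and the GC content of its longest transcript, 52.1%, was at percentile 62.5 of measured protein-coding genes. A pseudogene with a Plin2-like stretch, Gm12551, had 0 counts in both libraries.

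The genes nearest to Plin2 in both log2 ratio and log2 mean CPM, by straight-line distance over these 2 libraries, were Hmox1, Actg1, Lgals3, Tgfb1 and Eno1b. Hmox1, which encodes the haem-degrading enzyme haem oxygenase 1, was much the nearest at a distance of 0.211. It had 3919 and 38281 counts and a ratio of 12.8 (12.4 to 13.2). The next, the cytoskeletal actin gene Actg1, was at a distance of 1.15, with a ratio of 6.68 (6.52 to 6.84). Lgals3 and Eno1b, with ratios of 6.60 and 5.91, were under 2-fold after adjustment, with adjusted log2 ratios of 0.845 and 0.824. With 2 libraries, likeness in this sense is closeness in level and ratio, not correlation.

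**Figure D2:**
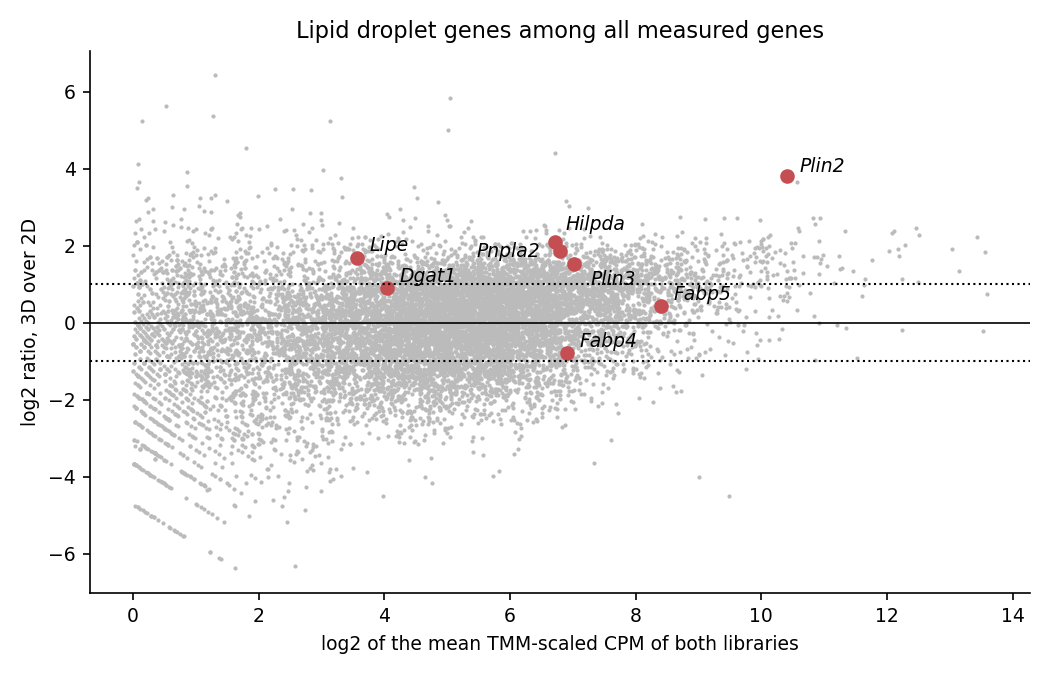
Log2 ratio (3D over 2D) against log2 mean TMM-scaled CPM for all 11673 measured genes (grey) and the 8 measured lipid droplet genes (red, labelled). Dotted lines mark 2-fold differences. Plin2 has a log2 ratio of 3.81, and Hmox1, the nearest of the named protein-coding genes searched, is at 3.67.

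Plin3 encodes perilipin 3 (TIP47), a cytosolic protein that moves onto newly forming droplets. The gene (ENSMUSG00000024197) lies at chr17:56277476-56292873 on the minus strand. It had 1179 counts in 2D and 2618 in 3D, or 66.7 and 193 CPM, so the difference ran the same way as for Plin2 but was smaller. The ratio was 2.90 (2.71 to 3.11), a log2 ratio of 1.54, at rank 780. Its call depended on the treatment of the counts. The log2 ratio was 0.94 on total counts and 0.91 after adjustment, both under 2-fold, and 1.08 when the adjustment used the length and GC content of the longest coding transcript.

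The other 3 perilipins had at most 2 counts in either library. Plin1, the perilipin of adipocyte droplets, had 2 and 0 counts. Plin4, also found mainly in adipose tissue, had 1 and 2 counts, and Plin5, found in oxidative tissues, had 0 and 2. All of these are at or under the floor of 3 counts used here, so no ratio is given. Within the perilipin family, Plin2 took 73.1% of 4392 counts in 2D (Wilson 95% interval 71.8 to 74.4) and 92.9% of 37097 counts in 3D (92.7 to 93.2). Scaled by the length of the longest coding transcript, the Plin2 share was 84.0% and 96.2%, and the Plin3 share 16.0% and 3.78%. The ratio of Plin2 to Plin3 per length was 5.26 in 2D and 25.4 in 3D, a 3D ratio 4.84 times the 2D ratio (exact conditional interval 4.47 to 5.23). That ratio is taken within each library and so does not depend on the scaling between libraries.

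**Figure D3:**
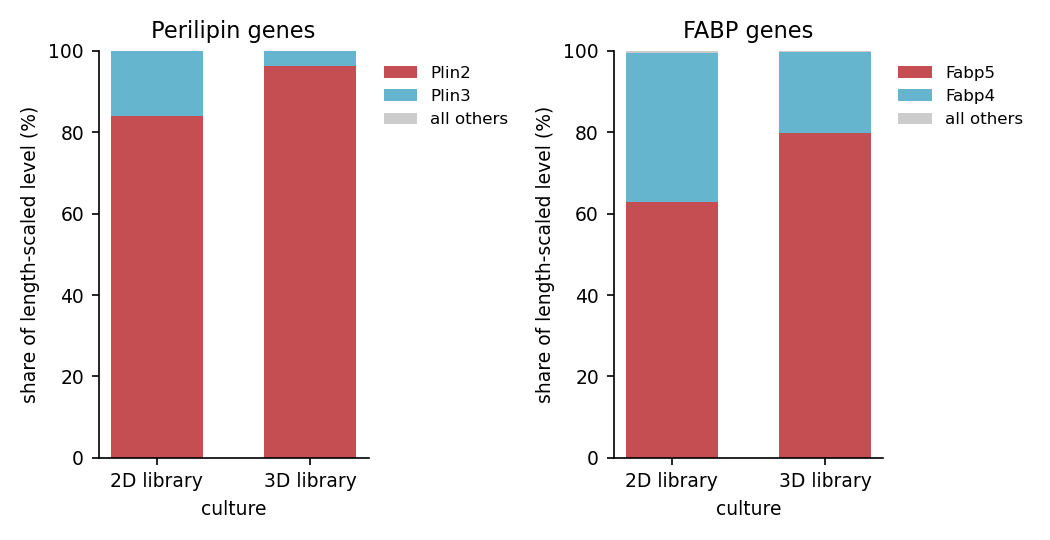
Share (%) of the length-scaled level taken by each gene within the 5 perilipins (left) and the 10 FABP genes (right) in the 2D and 3D libraries. The Plin2 share is 84.0% in 2D and 96.2% in 3D, and the Fabp5 share is 62.7% and 79.7%; genes other than Plin2, Plin3, Fabp4 and Fabp5 take less than 1% of either family.

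Pnpla2 encodes ATGL, the enzyme that removes the first fatty acid from triglyceride. The gene (ENSMUSG00000025509) lies at chr7:141455198-141460743 on the plus strand. Its RefSeq window (GRCm38.p6, chr7:141454938-141455207, plus strand) is shown because its motifs differ from those of Plin2. It held 2 GC boxes, at -109 and -26, in capitals on either strand, and no E-box, ACGTG or GCGTG.
Pnpla2: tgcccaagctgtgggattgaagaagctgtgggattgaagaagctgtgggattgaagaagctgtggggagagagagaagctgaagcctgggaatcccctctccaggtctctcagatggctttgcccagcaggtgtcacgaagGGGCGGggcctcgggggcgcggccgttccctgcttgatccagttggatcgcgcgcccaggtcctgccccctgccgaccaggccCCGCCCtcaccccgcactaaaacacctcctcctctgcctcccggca

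Pnpla2 had 845 counts in 2D and 2366 in 3D, or 47.8 and 175 CPM. The 3D library was higher by a ratio of 3.66 (3.38 to 3.96), a log2 ratio of 1.87, at rank 358. The GC content of its longest transcript was 57.0%, percentile 87.0 of measured protein-coding genes, and the adjusted log2 ratio was 0.73, under 2-fold. Lipe, which encodes hormone-sensitive lipase, the main hydrolase of diacylglycerol (ENSMUSG00000003123, chr7:25379527-25398710, minus strand), was much scarcer. It had 99 and 246 counts, or 5.60 and 18.2 CPM. Its ratio was 3.25 (2.56 to 4.14), a log2 ratio of 1.70, and 1.49 after adjustment. Lipe shares 918 exon bases with the antisense gene 4732471J01Rik, which had 8 and 1 counts, and no source used here says whether reads were counted by strand. The ratio of Lipe to Pnpla2 per length was 0.0828 in 2D and 0.0735 in 3D, a 3D over 2D factor of 0.887 (0.690 to 1.15), whose interval includes 1. After adjustment the log2 ratio of Lipe, 1.49, was above that of Pnpla2, 0.73.

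Hilpda encodes a small droplet protein, induced by low oxygen, that binds and inhibits ATGL. The gene (ENSMUSG00000043421) lies at chr6:29272488-29275446 on the plus strand and has 2 RefSeq start sites. The 30 bases around the ACGTG at -43 from the second start (29272626) are shown, since ACGTG is the core letters of a hypoxia response element (GRCm38.p6, chr6:29272571-29272600, plus strand, motif in capitals).
Hilpda: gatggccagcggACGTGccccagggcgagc

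The window of the second start also held GCGTG at -111 and -8, and that of the first start held none of these letters. Among the 6 genes with a RefSeq window, ACGTG was found for Plin2, Hilpda and Lipe, and not for Plin3, G0s2 or Pnpla2. For Lipe it lay inside an E-box at -155 from the start at 25395987. GCGTG was found for Plin2, Hilpda, Lipe (-75 from that start) and G0s2 (-142), and not for Plin3 or Pnpla2. The window of the other Lipe start, 25390112, held neither ACGTG nor GCGTG. The AP-1 letters TGANTCA, present in 7.23% of all windows, were found at 10 from the first Hilpda start, which is -128 from the second, and for none of the other 5 genes. The antioxidant response core TGACNNNGC (11.1% of all windows) and TATAAA (12.9%) were found for none of the 6.

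Hilpda had 707 counts in 2D and 2309 in 3D, or 40.0 and 171 CPM. Its ratio was 4.27 (3.92 to 4.65), a log2 ratio of 2.09, the second largest of the 10 genes and rank 199 of all. After adjustment it was 1.08, still above 2-fold. G0s2, the other inhibitor (ENSMUSG00000009633, chr1:193272161-193273217, minus strand), had 0 counts in both libraries. That allows at most 3 counts, or 0.209 and 0.180 CPM on total counts, so the gene was not detected at this depth in either culture. Hilpda was thus the only one of the 2 inhibitors with reads. The ratio of Hilpda to Pnpla2 per length was 2.24 in 2D and 2.61 in 3D, a factor of 1.17 (1.04 to 1.31), so the inhibitor differed slightly more between the libraries than the lipase. Plin2 differed more than either. Its ratio to Pnpla2 was 3.84 times as high in 3D (3.51 to 4.19), and its ratio to Hilpda 3.29 times as high (3.00 to 3.61).

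Abhd5 encodes the coactivator of ATGL (CGI-58), which perilipins can hold back. It had 1188 and 3862 counts, or 67.2 and 285 CPM, a ratio of 4.25 (3.98 to 4.54) and an adjusted log2 ratio of 2.17. Its ratio to Pnpla2 was 1.16 times as high in 3D (1.05 to 1.29). The lipase, its coactivator and its detected inhibitor were thus all higher in the 3D library, by 3.66-fold to 4.27-fold with TMM. Their adjusted log2 ratios lay further apart, at 0.73 for Pnpla2, 2.17 for Abhd5 and 1.08 for Hilpda. The list of lipolysis genes held 20 genes, of which 14 were measured. By the 2-fold rule 6 (42.9%) were higher and 3 (21.4%) lower, beside 18.7% and 20.8% of all measured genes. Outside the 10 genes the list held 11 measured genes, 3 higher, 3 lower and 5 between. Besides Abhd5 the higher ones were Abhd12 (2.65-fold), a serine hydrolase of lysophospholipids and monoacylglycerol, and Faf1 (2.12-fold), a ubiquitin-domain adaptor. The lower ones were the phospholipases Pnpla8 (2.57-fold), Ddhd1 (2.55-fold) and Ddhd2 (2.21-fold). All 3 were under a 2-fold difference after adjustment, with adjusted log2 ratios of 0.21, -0.27 and -0.67, and so was Abhd12 at 0.36.

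Mgll, which encodes monoglyceride lipase, had 2 and 0 counts, so the last enzyme of the classical lipase sequence was at or under the floor in both libraries. Lipa, which encodes lysosomal acid lipase, had 5366 and 7298 counts and a ratio of 1.78 (1.72 to 1.84). Per length it stood 5.61-fold above Pnpla2 in 2D and 2.73-fold above it in 3D, a 3D over 2D factor of 0.486 (0.445 to 0.530). The direction of that factor depended on the adjustment. The adjusted log2 ratio of Lipa was 1.15, above 2-fold and above that of Pnpla2, 0.73. Abhd6 (a TMM ratio of 1.40) and Nceh1, which encodes a cholesteryl ester hydrolase (1.63-fold lower), were the measured genes of the list closest to no difference. The log2 ratio of Abhd6, 0.487, was smaller than the shift of -0.599 from TMM to total counts, so its direction depended on the scaling.

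Dgat1 encodes the diacylglycerol acyltransferase of the endoplasmic reticulum (ENSMUSG00000022555, chr15:76502015-76511953, minus strand). It had 203 and 292 counts, or 11.5 and 21.6 CPM. The 3D library was higher by a ratio of 1.88 (1.57 to 2.26), an interval that spans 2-fold, and the adjusted log2 ratio was 0.31. Dgat2, the enzyme that also works at the droplet surface (ENSMUSG00000030747, chr7:99153658-99182719, minus strand), had 15 counts in 2D and 8 in 3D, or 0.848 CPM (0.475 to 1.40) and 0.591 CPM (0.255 to 1.17). It was not measured by the 1 CPM rule, and its ratio of 0.697 (0.256 to 1.75) has an interval that includes 1. Reads for this last step of triglyceride synthesis thus came mostly from Dgat1 in both libraries. The ratio of Dgat1 to Pnpla2 per length was 0.334 in 2D and 0.172 in 3D, a factor of 0.514 (0.421 to 0.628). The ratio of Plin2 to Dgat1 was 7.47 times as high in 3D (6.19 to 8.995).

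Of the 21 listed genes of triglyceride synthesis 16 were measured. By the 2-fold rule 31.2% of the 16 were higher and none was lower, beside 18.7% and 20.8% of all measured genes. Outside Dgat1 there were 15, of which 5 were at least 2-fold higher and 10 between. The higher ones were Agpat2 (3.27-fold, 2.92 to 3.68), Agpat4 (2.49-fold) and Agpat3 (2.35-fold), which belong to the acyltransferase family that makes phosphatidic acid, and 2 scarce genes. These were Mogat1, a monoacylglycerol acyltransferase, with 20 and 36 counts (2.35-fold, 1.33 to 4.29), and Gpat3, a glycerol-3-phosphate acyltransferase, with 42 and 68 counts (2.12-fold, 1.42 to 3.19). After adjustment the log2 ratios of Agpat2, Agpat3 and Agpat4 were 0.60, 0.58 and 0.76, all under 2-fold. Lclat1 had a ratio of 1.01 and Gpd1l of 0.876, the closest to no difference in the list.

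Fabp4 and Fabp5 encode the 2 FABPs known from macrophages and adipocytes, also called aP2 and mal1. They lie near each other on chromosome 3, Fabp4 (ENSMUSG00000062515) at chr3:10204088-10208576 on the minus strand and Fabp5 (ENSMUSG00000027533) at chr3:10012548-10016607 on the plus strand. Fabp4 had 2685 counts in 2D and 1201 in 3D, or 152 and 88.8 CPM. It was the one measured gene of the 10 with a lower level in the 3D library, by 1.71-fold (1.60 to 1.83), a log2 ratio of -0.77. On total counts and with reference genes it passed 2-fold, with log2 ratios of -1.37 and -1.23, and after adjustment it was -0.35.

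Fabp5 had 5071 and 5275 counts, or 287 and 390 CPM, a ratio of 1.36 (1.31 to 1.41). The direction of this difference depended on the scaling, since the log2 ratio was 0.44 with TMM, -0.16 on total counts, -0.016 with reference genes, -0.21 after adjustment and -0.10 when the adjustment used the coding transcript. No direction is given for Fabp5 for that reason. The ratio of one gene to the other within a library does not depend on scaling, but it is not adjusted for the gene properties. The ratio of Fabp4 to Fabp5 per length was 0.583 in 2D and 0.251 in 3D, a factor of 0.430 (0.397 to 0.465). After adjustment the log2 ratios were closer to each other than with TMM, at -0.35 for Fabp4 and -0.21 for Fabp5. With the coding transcript in the adjustment they were -0.44 and -0.10.

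The Fabp5 counts are uncertain for another reason. The gene has 5 near-identical processed pseudogenes, and the first 120 coding bases of Fabp5 beside those of the copy with the most counts, Gm6166 (chr9:57483963-57484371), show how little separates them. The capital marks the single position that differs.
Fabp5: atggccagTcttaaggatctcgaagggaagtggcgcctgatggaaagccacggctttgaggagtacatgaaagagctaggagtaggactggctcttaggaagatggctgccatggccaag
Gm6166: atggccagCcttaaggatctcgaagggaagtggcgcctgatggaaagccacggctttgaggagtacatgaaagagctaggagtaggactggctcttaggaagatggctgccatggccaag

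The 2 sequences are from the GENCODE M21 transcripts. Gm6166 was 98.3% identical to Fabp5 over 409 aligned bases, with a longest identical stretch of 179 bases. It was assigned 4797 counts in 2D and 5453 in 3D, against 5071 and 5275 for Fabp5 itself. Gm14328, 97.3% identical, was assigned 463 and 513, and the other 3 copies (Gm13998, Fabp5l2 and Gm6100) had 0 counts in both libraries. No source used here says how reads that fit both a gene and its copy were counted. Summed over Fabp5 and its copies the counts were 10331 and 11241, a ratio of 1.42 (1.38 to 1.46). The ratio thus depended little on how the assigned reads were divided. The level of Fabp5 relative to the other genes depended more on that division. Shared reads that were left uncounted, if any, are not in this sum, so it cannot show their effect.

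Of the other 8 FABP genes only Fabp3, the heart form, was measured, with 43 and 15 counts (2.19-fold lower, 1.20 to 4.25). Fabp1, the liver form, had 1 and 2 counts, and the remaining 6 had 0 in both libraries. Within the family Fabp5 took 65.0% of 7800 counts in 2D (63.95 to 66.1) and 81.2% of 6493 in 3D (80.3 to 82.2), without the copies. Scaled by length, the Fabp4 share was 36.6% and 19.99%.

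Per kilobase of the longest coding transcript, the order of levels in the 2D library was Fabp5 (290 CPM per kb), Fabp4 (169), Plin2 (96.1), Hilpda (40.7), Plin3 (18.3), Pnpla2 (18.2), Dgat1 (6.08), Lipe (1.51) and Dgat2 (0.375). The counting intervals of Plin3 (17.3 to 19.4) and Pnpla2 (17.0 to 19.5) overlapped, and those of the other neighbours in the order did not. In the 3D library the order was Plin2 (1349), Fabp5 (395), Hilpda (174), Fabp4 (99.1), Pnpla2 (66.6), Plin3 (53.1), Dgat1 (11.4), Lipe (4.90) and Dgat2 (0.261), with no overlap between neighbours. Plin2 thus held the third of these levels in 2D and the first in 3D. Among measured protein-coding genes its level per length was at percentile 95.6 in 2D and 99.4 in 3D, while Lipe was at percentile 9.39 and 32.7.

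**Figure D4:**
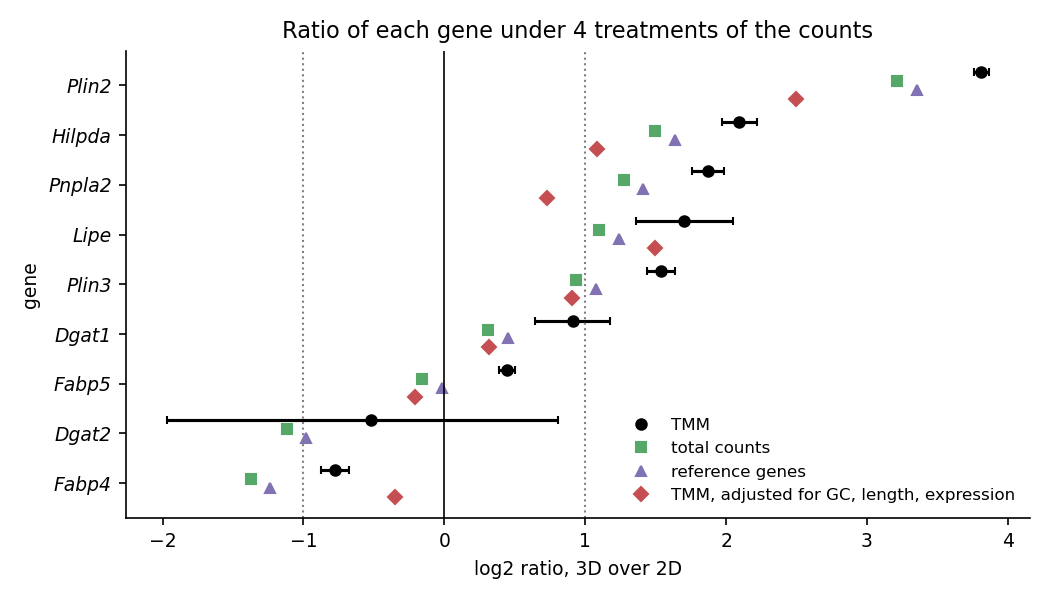
Log2 ratio (3D over 2D) of the 9 genes with counts, with TMM (black circles, with exact 95% counting intervals), total counts (green squares), reference genes (purple triangles) and TMM after adjustment for the 3 gene properties (red diamonds). Dgat2 has no adjusted value because it was not measured. Dotted lines mark 2-fold differences; Plin2 is at 2.49 or higher in all 4, and Fabp5 lies at 0.44 with TMM and at -0.16, -0.016 and -0.21 with the others.

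Around the 10 genes, 112 other genes of droplet assembly, lipolysis, triglyceride synthesis, acyl-CoA handling, fatty acid binding, lipid uptake and sterol ester storage were listed, and 77 were measured. By the 2-fold rule 20 of these (26.0%) were higher, 9 (11.7%) lower and 48 between, beside 18.7% and 20.8% of all measured genes. Their median log2 ratio was 0.56, and 0.35 after adjustment. After adjustment 15 were at least 2-fold higher and 3 lower, beside 10.5% and 9.75% of all measured genes. These counts rest on the scaling, since on total counts 6 were higher and 23 lower, and with reference genes 6 and 17. The shares of all measured genes shifted as well, to 5.59% higher and 36.5% lower on total counts. With reference genes they were 7.91% and 31.6%. Over all genes the higher calls were 47.3% of the 2-fold calls with TMM, 13.3% on total counts and 20% with reference genes.

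In the list of 26 droplet assembly genes 19 were measured. By the 2-fold rule 3 (15.8%) were higher and 2 (10.5%) lower, beside 18.7% and 20.8% of all measured genes. The higher ones were Aup1 (2.60-fold), a droplet and endoplasmic reticulum protein, the vesicle coat gene Copg1 (2.26-fold), and Gbf1 (2.21-fold). The lower ones were Vps13a, a lipid transfer protein (3.28-fold), and Lnpk, which shapes the endoplasmic reticulum (3.02-fold). Aup1, Gbf1, Vps13a and Lnpk were under 2-fold after adjustment, with adjusted log2 ratios of 0.03, 0.71, -0.27 and 0.32. Bscl2, which encodes seipin of the droplet assembly site, had a ratio of 1.98 (1.63 to 2.40) and an adjusted log2 ratio of 1.11, above 2-fold. Cidea and Cidec, which drive droplet fusion, had 0 counts in both libraries. Spg20 and Copb1 had ratios of 1.02 and 1.04.

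In the acyl-CoA list 17 of 20 genes were measured. By the 2-fold rule 4 (23.5%) were higher and 1 (5.88%) lower, beside 18.7% and 20.8% of all measured genes. The higher ones were Acbd6, an acyl-CoA binding protein (4.75-fold, 4.42 to 5.11), the thioesterases Acot7 (3.80-fold) and Acot1 (3.58-fold, 2.08 to 6.41, from 19 and 52 counts), and Acss2, the cytosolic acetyl-CoA synthetase (2.18-fold). The lower one was Acbd5, a peroxisomal acyl-CoA binding protein (3.53-fold, 3.06 to 4.09). Acsl1 and Acbd4 had ratios of 1.06 and 1.08. The adjusted log2 ratio of Acbd6 was 2.34, while those of Acot7 and Acbd5 were under 2-fold, at 0.57 and -0.56.

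In the lipid uptake list 12 of 17 genes were measured. By the 2-fold rule 5 (41.7%) were higher and 1 (8.33%) lower, beside 18.7% and 20.8% of all measured genes. Slc27a4, a fatty acid transport protein, had 472 and 1696 counts (4.70-fold, 4.24 to 5.21), and its relative Slc27a3 had 94 and 2 counts (36.0-fold lower, 9.68 to 301). Among the others that were higher were Got2 (2.55-fold), Lrpap1 (2.22-fold) and the scavenger receptor gene Scarb1 (2.21-fold). Got2 and Lrpap1 had adjusted log2 ratios of 0.15 and 0.25, under 2-fold. Cd36, the fatty acid and oxidised lipoprotein receptor, had 304 and 231 counts and a ratio of 0.993 (0.833 to 1.18). After adjustment the log2 ratio of Cd36 was 1.34, above 2-fold. Lpl, which encodes lipoprotein lipase, was 1.34-fold lower (1.27 to 1.41).

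**Figure D5:**
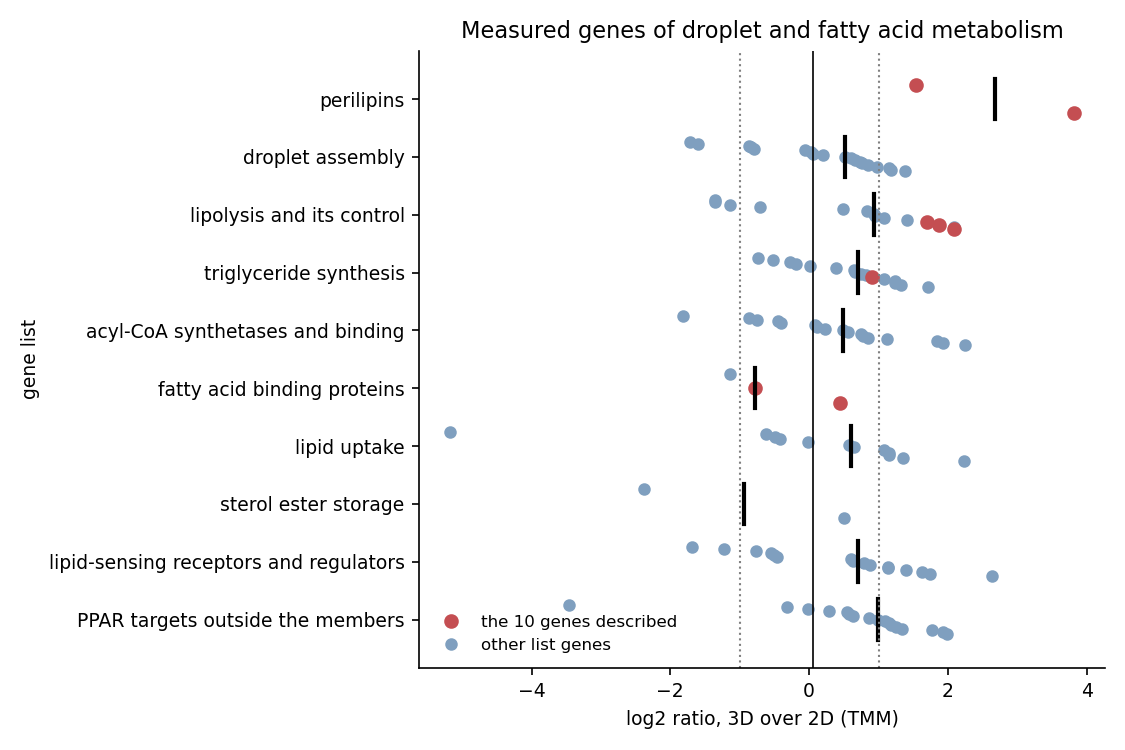
Log2 ratio (3D over 2D, TMM) of each measured gene in 10 lists, with the 10 genes described in red, other genes in blue and the list median as a black bar. The thin line is the median of all measured genes (0.05) and the dotted lines mark 2-fold differences; Plin2 has the largest ratio in the first 8 lists and Slc27a3 the lowest.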

How the data were processed

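The deposited values are whole-number counts per gene for each library, made by the authors with Trimmomatic, HISAT2 and HTSeq on mm10, per the submitters' processing notes. Their versions, the strand setting and the release of the annotation were not given in the sources used here. Of 52550 identifiers 52403 (99.7%) matched GENCODE M21 and 147 did not.

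Counts were scaled with TMM (edgeR 4.0.16; factors 1.23 for 2D and 0.813 for 3D) and gave CPM and ratios, with a floor of 3 counts for a library at 0. A gene was measured at a mean of at least 1 CPM and called at 2-fold. CPM intervals are exact Poisson, ratio intervals exact binomial, shares Wilson, and changes of within-library ratios conditional exact (scipy 1.17.1), all at 95%. No test was made, because each culture has 1 library. The adjusted log2 ratio is the residual from natural cubic splines with 4 degrees of freedom in GC content, exon length and mean expression (patsy 1.0.2), with GC content from the longest transcript. For Fabp4 and Fabp5 that transcript retains introns, so levels per length used the longest coding transcript. Near-identical copies were found with BLAST 2.17.0 at 90% identity over at least 300 bases. Promoter windows are RefSeq GRCm38.p6; the extension to 20 bases after the start was chosen after the Plin2 sequence was seen. The calculations were tested on simulated data.

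The genes and lists were chosen with earlier results of these data known. Within each list the named genes are the 4 past 2-fold with the interval bound farthest from 1 and the 2 closest to a ratio of 1; the 5 genes most like Plin2 were named by distance. Other genes (among them Abhd12, Faf1, Pnpla8, Ddhd1, Ddhd2, Mgll, Lipa, Mogat1, Gbf1, Bscl2, Acss2, Scarb1 and the listed genes at or near 0 counts) were chosen after their values were seen. Alternatives were other scalings, other filters, a pseudocount of 1 CPM, 1.5-fold and 4-fold rules, calls by interval bound, thinning, the adjustments and addition of the copies.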

Additional observations from a re-analysis of the deposited data

How the results depend on the processing

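No paired analysis was possible because each culture has 1 library, and for the same reason no library could be left out in turn. Over 15 alternatives, Plin2, Plin3, Hilpda, Pnpla2, Lipe and Dgat1 were higher in 3D and Fabp4 was lower in each alternative that gives a log2 ratio. Of 115 alternative log2 ratios of single genes, 80 stayed inside the counting interval, 31 moved outside it and 4 reversed. Many of the 80 could not move. The other filters leave a gene's log2 ratio as it was, and the interval bound is the edge of the interval itself. Adding the copies changed only Fabp5. The tally therefore does not measure how stable the ratios were. All 4 reversals were of Fabp5, at -0.16 on total counts, -0.016 with reference genes, -0.21 after adjustment and -0.10 with the coding transcript in the adjustment, an alternative chosen after seeing the data. The count of the 10 genes at least 2-fold higher was 5, beside 18.7% of all measured genes. It became 2 with the 4-fold rule (Plin2 and Hilpda), beside 2.23%, and 3 after adjustment (Plin2, Hilpda and Lipe), beside 10.5%. On total counts it was 4, beside 5.59%. It was also 4 with the coding transcript in the adjustment, beside 9.76%, and 6 with the 1.5-fold rule (Dgat1 added), beside 31.7%. The count at least 2-fold lower was 0, beside 20.8% of all measured genes. It became 1 (Fabp4) on total counts, with reference genes and with the 1.5-fold rule, beside 36.5%, 31.6% and 30.4%. For the 77 measured pathway genes the count higher was 20. It became 6 on total counts, 6 with reference genes, 37 with the 1.5-fold rule, 3 with the 4-fold rule and 10 with the coding transcript in the adjustment. With reference genes 7.91% of all measured genes were higher, and the other shares are those given above. The count lower was 9. It became 23 on total counts, 17 with reference genes, 17 with the 1.5-fold rule, 2 with the 4-fold rule and 3 under either adjustment. The 4-fold rule called 6.67% of all measured genes lower, and the 2 adjustments 9.75% and 9.18%. The reasons for these shifts were not tested beyond the rules themselves. Depth limits G0s2, Dgat2 and Plin1, Plin4 and Plin5, and no interval here holds the spread between cultures.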

Other observations

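Regulators of droplet and fatty acid genes did not all follow Plin2. Of 19 listed lipid-sensing receptors and regulators 16 were measured, with a median log2 ratio of 0.71 that became -0.08 after adjustment. Of these 6 (37.5%) were called higher in 3D and 2 (12.5%) lower, beside 18.7% and 20.8% of all measured genes. Total counts shift every log2 ratio by -0.599 from TMM. On that scale fewer of the 16 and only 5.59% of all measured genes were past 2-fold higher. Pparg, the receptor best known for driving Fabp4 and Plin2 in adipocytes and macrophages, had 1 and 0 counts, and Ppara had 0 in both libraries. Ppard, the third member of that family, had 583 and 690 counts (1.55-fold higher with TMM, 1.38 to 1.73). Its log2 ratio of 0.629 was little above the size of the -0.599 shift to total counts, so Ppard was near no difference there. Hif1a, the oxygen-regulated factor for which Hilpda is a known target, had 10057 and 3289 counts. It was 2.34-fold lower in 3D (2.25 to 2.43), and its adjusted log2 ratio was -0.85. Its mRNA level does not measure the protein, which is set largely by its degradation. Cebpb was 6.23-fold higher (5.35 to 7.28), and Nr1h3, which encodes the sterol-sensing receptor LXR alpha, was 3.33-fold higher, with an interval of 2.65 to 4.22. Nr1h2 was 2.62-fold higher, Ppargc1a was 3.23-fold lower, and Ppargc1b and Mlxip were closest to no difference, at 1.38-fold and 1.42-fold lower. After adjustment Nr1h2 and Ppargc1a were under 2-fold, with log2 ratios of 0.13 and -0.46, while Ppargc1b was past 2-fold lower, at -1.045.

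Of 25 listed PPAR target genes outside the 10, 17 were measured. By the 2-fold rule with TMM 8 of these (47.1%) were higher and 1 (5.88%) lower, beside 18.7% and 20.8% of all measured genes. Their median log2 ratio was 0.995, and 0.70 after adjustment. On total counts, with the same shift of -0.599, fewer of the 17 and only 5.59% of all measured genes were past 2-fold higher. A part of PPAR receptors in these differences was not tested. Cpt1a, the gate of fatty acid import into mitochondria, was 3.80-fold higher (3.51 to 4.12) with an adjusted log2 ratio of 1.57. Ucp2 was 3.97-fold higher from 7938 and 24114 counts and Acaa2 3.42-fold higher (adjusted log2 ratios 0.72 and 0.70, under 2-fold). Angptl4 was 2.21-fold higher (1.68 to 2.93), while Pdk4 had 0 counts in both libraries. Hadhb had a ratio of 1.22 and an adjusted log2 ratio of 1.41, above 2-fold. The one lower gene was Abca1, the cholesterol exporter, with 115 and 8 counts (11-fold lower, 5.40 to 26.1). In sterol ester storage, Soat1 had a TMM ratio of 1.42 (1.38 to 1.47) and Soat2 was 5.22-fold lower (3.99 to 6.93), from 423 and 62 counts. Total counts shift every log2 ratio by -0.599 from TMM. That is more than the 0.506 of Soat1, so no direction is given for Soat1. Measured within each library, the ratio of Soat1, which makes cholesteryl ester, to Nceh1, which hydrolyses it, was 2.32 times as high in 3D (2.14 to 2.52). On chromosome 4 the nearest measured genes on either side of Plin2, Haus6 and Dennd4c, had ratios of 0.177 and 0.541, so both were lower in the 3D library.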
